A study of Homo sapiens with 2 samples.

Results

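SK-NEP-1 is a human tumour cell line that the labels give as Wilms' tumour, a tumour of the kidney. LBH589 (panobinostat) is a small molecule that inhibits histone deacetylases, the enzymes that take acetyl groups off histones. SK-NEP-1 cells were treated with 100 nM LBH589, and the control cells, whose sample is labelled Blank, received the same volume of the solvent DMSO; the time given in the labels is 24 h. RNA freed of rRNA was labelled with Cy3 and hybridised to a 1-colour Agilent array of Arraystar lncRNA and mRNA probes, with 1 array per condition and 2 arrays in all. Without a replicate there is no test between the conditions, and every difference below is between these 2 RNA samples. The kidney lineage genes WT1, SIX2 and PAX2 had no probe in the rows used, so the labelled origin of the line was not checked.

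The genes described here are STMN2, NEFM, ACTL6B, NEUROG1 and GAP43, 5 neuronal genes that the study lists among the mRNAs raised by LBH589. All probes carrying 1 of these symbols in that list were taken, which gave 6 probes among 58921 probes left after control and outlier spots were removed, or among 1954 mRNA probes with a symbol in the rows used. Because the genes were chosen for being higher after LBH589, their differences are given as a description. The working description of these genes as switched on held in part only. In DMSO, STMN2 and 1 of the 2 NEFM probes already lay above every negative-control spot. ACTL6B was marked well above background there but lay within the range of those spots. GAP43 lay within that range on both arrays.

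The genes act at different steps of neuronal differentiation. NEUROG1 encodes a proneural basic helix-loop-helix transcription factor that commits progenitors to a neuronal fate. ACTL6B encodes the actin-related subunit of the neuron-specific form of the BAF chromatin remodelling complex, which replaces the progenitor form when neurons leave the cell cycle. STMN2 (stathmin-2) binds tubulin and regulates microtubules in growing axons, NEFM is the medium chain of the neurofilaments that fill axons, and GAP43 is a membrane-attached protein of the growth cone. Many neuronal genes are held silent in other cell types by the repressor REST, which binds the RE1 element and recruits histone deacetylases.

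The probes of ACTL6B and GAP43 are shown because the first gave a bright signal after LBH589 and the second did not leave the range of the negative controls. Both are 60 bases, and the GC content is 53.3% for ACTL6B and 35% for GAP43, whose probe holds 50% A. They read 5′ to 3′ in lower case, with no base marked.
ACTL6B probe: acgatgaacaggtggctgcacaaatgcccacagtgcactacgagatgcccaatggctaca
GAP43 probe: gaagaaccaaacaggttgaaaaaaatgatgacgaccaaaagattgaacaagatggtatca
Of the other 4 probes, those of STMN2 and NEFM had a GC content of 50% to 51.7%. The NEUROG1 probe had 26.7% and no open reading frame in any of the 3 forward frames. No pair of the 6 probes shared a stretch of more than 9 bases.

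The upstream 250 bases of ACTL6B, GAP43 and NEUROG1 are shown because the study lists these genes as raised, and because the letters before their starts differ. They come from the RefSeq promoter table for GRCh38.p14, in which 3 of the 5 genes had an entry; STMN2 and NEFM had none. They read 5′ to 3′ on the strand of the gene, and capitals mark matches on either strand to CCAAT, to the GC box GGGCGG or to the E-box CANNTG.
ACTL6B, chr7:100656449-100656698, minus strand: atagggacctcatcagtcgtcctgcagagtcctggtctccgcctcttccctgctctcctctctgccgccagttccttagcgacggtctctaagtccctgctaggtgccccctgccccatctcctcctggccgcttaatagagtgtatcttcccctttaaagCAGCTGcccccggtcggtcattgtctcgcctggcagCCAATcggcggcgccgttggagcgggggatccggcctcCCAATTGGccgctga
GAP43, chr3:115623260-115623509, plus strand: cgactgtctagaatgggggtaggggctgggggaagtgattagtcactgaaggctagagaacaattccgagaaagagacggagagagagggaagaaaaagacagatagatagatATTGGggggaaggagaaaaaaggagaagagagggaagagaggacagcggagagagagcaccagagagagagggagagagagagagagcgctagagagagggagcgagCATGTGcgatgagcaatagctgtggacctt
NEUROG1, chr5:135535965-135536214, minus strand: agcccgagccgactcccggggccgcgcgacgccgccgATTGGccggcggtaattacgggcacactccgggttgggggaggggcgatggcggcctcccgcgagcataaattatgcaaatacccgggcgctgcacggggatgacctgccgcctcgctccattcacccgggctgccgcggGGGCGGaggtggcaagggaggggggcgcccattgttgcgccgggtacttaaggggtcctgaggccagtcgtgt

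The upstream stretches differed in composition. NEUROG1 had a GC content of 70.4% with 30 CpG dinucleotides, ACTL6B 62.4% with 16, and GAP43 51.6% with 7, against medians of 58% and 11 over all 35116 upstream stretches of the table. The GAP43 stretch was 78.4% purine (A or G), at the 99.9th percentile of all stretches, whereas that of ACTL6B was 38% purine, at the 3.57th percentile. CCAAT occurred in the 3 stretches, and in 32% of all; the ACTL6B stretch held 3 matches, of which 2 lie on opposite strands and overlap each other and an E-box near the start. The GC box occurred in NEUROG1 only among the 3, and in 42.6% of all. An E-box, the kind of site that proneural factors bind, occurred in ACTL6B and GAP43 and in 61.8% of all stretches. None of the 3 held TATAAA (10.7% of all), the left arm of RE1, TTCAGCACC (0.288% of all), or the right arm of RE1 (0.199% of all); these letters were searched on both strands without mismatch.

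The values given next are the processed signals of Agilent's Feature Extraction, background-subtracted intensities in scanner units, each with the error that this software estimates for a spot. Differences are LBH589 minus DMSO on a log2 scale, after each array was divided by the 75th percentile of its probes. That percentile was 189 for DMSO and 108 for LBH589, so an equal signal on both arrays counts as 1.74-fold higher after LBH589. Without this step the median difference of all probes measured on both arrays was -0.83 log2. A probe that the software did not mark as well above background on the DMSO array has only a lower bound for its difference. The bound was set against the lowest signal marked well above background there, 21.3, and is written as "at least". That mark is lenient: it was carried by 15% of 600 negative-control spots in DMSO and by 12.3% in LBH589. The negative-control spots reached 91.1 and 49.1.

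STMN2 showed the biggest difference of the members. The probe (transcript NM_007029, plus strand, hg19 coordinates chr8:80523049-80578410) had a processed signal of 114 ± 12.2 in DMSO and 6013 ± 601 in LBH589. Both signals lay above every negative-control spot of their array, so STMN2 was measured in the control cells too. The difference was 6.51 ± 0.21 on the log2 scale, or 91.4-fold, with a 95% interval of the measurement error from 68.6-fold to 122-fold. Of 34618 probes measured well above background in DMSO and LBH589 alike, it ranked 9, and among the listed mRNA probes 3. The unscaled median pixel showed the same direction, 179 in DMSO and 5994 in LBH589, over local backgrounds of 32 and 31.

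NEFM has 2 probes in the list. The first detects both annotated transcripts, NM_001105541 (plus strand, hg19 chr8:24772455-24776606) and NM_005382, and had 234 ± 23.7 in DMSO and 5475 ± 547 in LBH589. Both values were above all negative-control spots. The difference was 5.35 ± 0.21 log2, or 40.8-fold (30.8-fold to 53.9-fold), at rank 28 of the 34618 probes. This probe holds a stretch of 21 bases that occurs at 2 places within its own 60 bases.

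The second NEFM probe, annotated to NM_005382 alone (hg19 chr8:24771274-24776606), was near the detection limit. Its signal was 7.08 ± 4.32 in DMSO, a level reached by 33.3% of the negative-control spots, and 48.8 ± 5.80 in LBH589, a level reached by 1 of 600. The bound was at least 3.99-fold, and the probe's own signals differed by 3.58 log2. The 2 NEFM probes shared no stretch of more than 6 bases. The first exceeded the bound of the second by 3.35 log2, and the second's own-signal difference by 1.76 log2. A lower bound does not cap the second difference, and its own-signal difference had an error of 0.90 log2. A disagreement between the 2 probes was thus not shown, and whether the transcripts or the probes differ was not tested.

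ACTL6B had a low signal in DMSO, within the range of the negative-control spots, so its presence there was not shown. The probe (NM_016188, minus strand, hg19 chr7:100240726-100254084) had 74.9 ± 8.62 in DMSO, where 11 of the 600 negative-control spots (1.83%) were at or above it, and 2027 ± 203 in LBH589, where none was. The difference was 5.56 ± 0.22 log2, or 47.1-fold (34.9-fold to 63.4-fold), at rank 25. With every signal below the highest negative-control spot raised to that spot, the ACTL6B difference was at least 5.28 log2. Those of STMN2 and the first NEFM probe stayed at 6.51 and 5.35.

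NEUROG1 was detected on the LBH589 array alone. The probe (NM_006161, minus strand, hg19 chr5:134869972-134871639) had 4.25 ± 4.28 in DMSO, the value of the median negative-control spot, with none of the 600 below it. In LBH589 it had 86.2 ± 9.32, above all 600. The bound was at least 7.03-fold, or 2.81 log2. Before scaling, the signal in LBH589 was below the highest negative-control spot of the DMSO array, 91.1, but above that of its own array, 49.1. With both arrays raised to their highest negative-control spot and then scaled, the NEUROG1 difference was at least 0.72 log2, or 1.65-fold.

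GAP43 was not clearly detected on either array. The probe (NM_002045, plus strand, hg19 chr3:115342151-115440334) had 6.58 ± 4.31 in DMSO, a level that 35% of the negative-control spots reached, and 18.9 ± 3.53 in LBH589, a level that 9.5% reached. The bound was at least 1.54-fold (0.62 log2), below the 2-fold mark. Before any scaling, the median pixel of this spot was lower in LBH589, at 74.5, than in DMSO, at 80, and the same held after subtraction of the local background, at 41.5 and 46.5. GAP43 was thus higher after LBH589 in the processed signal and lower in the unprocessed, unscaled one. With the 75th-percentile scaling, the background-subtracted median pixel gave a difference of 0.59 log2. Without scaling, the bound from the processed signal gave no fold.

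**Figure D1:**
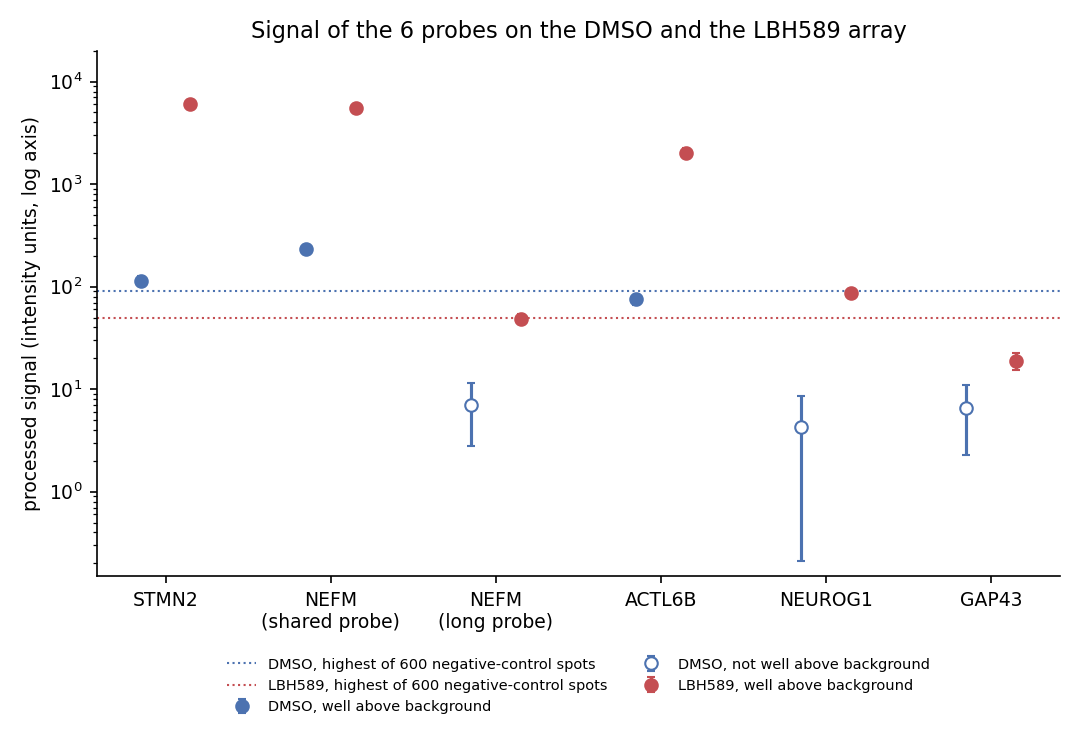
Processed signal (intensity units, log axis) of the 6 member probes on the DMSO array (blue) and the LBH589 array (red). Bars are the spot error of Feature Extraction, with the lower bar cut so that it stays on the log axis; open circles were not well above background, and the dotted lines mark the highest negative-control spots at 91.1 and 49.1. STMN2, the shared NEFM probe and ACTL6B lie between 2027 and 6013 in LBH589, whereas GAP43 stays under both lines.

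Among the 6 member probes, 5 were at least 2-fold higher and 4 at least 5-fold higher, GAP43 missing both marks and the second NEFM probe the higher one. Of 41574 probes that were well above background in DMSO, in LBH589 or in both, 12.3% were at least 2-fold higher and 2.49% at least 5-fold higher, while 10.2% were at least 2-fold lower and 1.65% at least 5-fold lower. Nothing is read from the comparison because the same contrast chose the members. The middle of all probes measured on both arrays hardly moved: the median difference was -0.04 log2, with quartiles of -0.50 and 0.48, and 40 probes (0.116%) were at least 32-fold higher. Spots printed 10 times on the array, 19 probes in all, gave a median SD of 0.09 log2 for the difference, with a maximum of 0.25. The differences of STMN2, ACTL6B and the shared NEFM probe were many times wider than this spread within arrays, which says nothing of the spread between cultures.

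**Figure D2:**
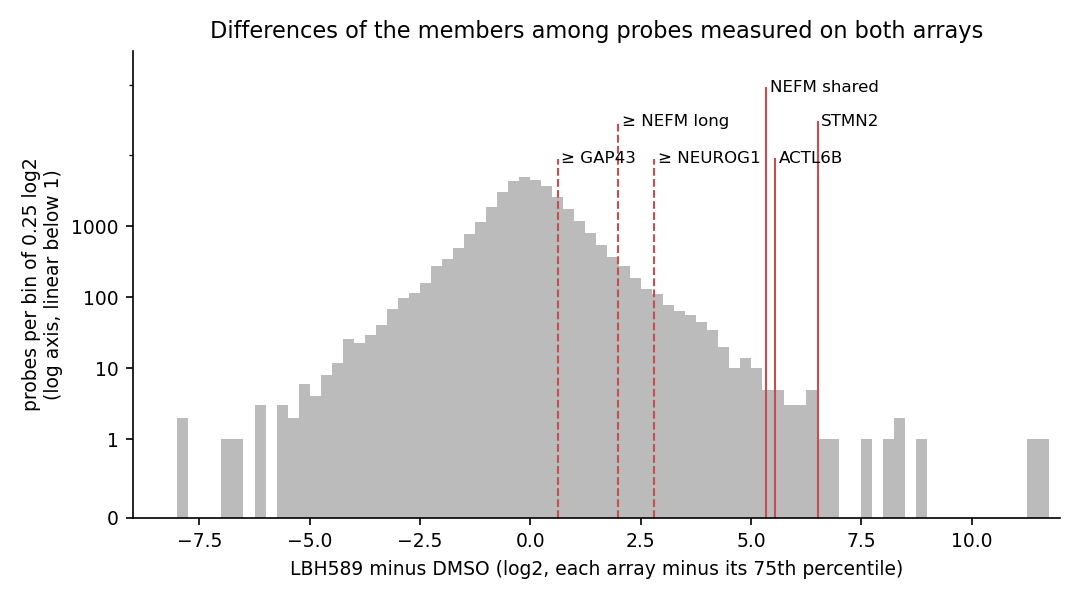
Number of probes per bin of 0.25 log2 (log axis) against the LBH589 minus DMSO difference, for 34618 probes whose 2 signals were both well above background. Red lines mark the members: STMN2 at 6.51, ACTL6B at 5.56 and the shared NEFM probe at 5.35 stand in the sparse right tail, and the dashed lines are lower bounds at 2.81 (NEUROG1) and 0.62 (GAP43), with the second NEFM probe between them.

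Few named genes had differences as wide as those of the 3 members measured on both arrays. The nearest 3 were sought for each among 1198 listed probes of other symbols measured on both arrays, by the gap in log2 difference over the 2 arrays. Nearest to STMN2 were SPANXA2, a testis-expressed gene of the X chromosome, at 6.47, RPRML at 5.93, and PGA3, a pepsinogen gene of the stomach, at 5.72. Nearest to the shared NEFM probe were PGA4, another pepsinogen gene, at 5.27, and STC1 (the secreted glycoprotein stanniocalcin-1) at 5.24. ACTL6B had PGA3 and NEFM itself nearest, with PGA4 next. PGA3 and PGA4 are near-identical copies whose probes may take up each other's RNA. The nearest genes thus included stomach and testis genes beside the neuronal one.

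The other genes of the neuronal programme were taken from 7 lists by role, 340 symbols in all, of which 51 had probes in the rows used. Those rows hold probes that the study listed as changed, so the shares below describe changed probes, not the whole of each list, and a symbol with no probe there was not analysed here. Of 57 probes, members included, 38 were at least 2-fold higher and 15 at least 2-fold lower, with a median of 2.15 log2. Over all 1943 listed mRNA probes without an outlier mark, 866 were higher and 812 lower by the same rule, with a median of 0.49. Without the members, 33 of 51 neuronal probes were higher and 15 lower. Of these 51, 24 were well above background on both arrays, against 1199 of the 1943. Among all 2689 array probes well above background in LBH589 only, 40.5% were at least 2-fold higher by their bound. The lists were chosen with earlier results of these data known, and TTC9B was put in after its value had been seen. Nothing is therefore read from these shares. With every signal below the highest negative-control spot of its array raised to that spot, called the negative-control floor below, 21 of the 57 were at least 2-fold higher and 8 lower. Where a single side was raised, the fold at the floor is a lower bound. A floored value under 2-fold therefore does not show that the probe changed by less than 2-fold.

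Of the axonal cytoskeleton and growth cone list, 9 of 12 probes were at least 2-fold higher and 1 lower. NEFL, the light neurofilament chain that assembles with NEFM, had 19.7 in DMSO, not well above background, and 195 in LBH589, at least 16.0-fold higher. INA (alpha-internexin), also an intermediate filament of neurons, had 20.0 and 59.9, at least 4.89-fold. KIF5C, a kinesin motor of axonal transport, was measured on both arrays at 29.3 and 95.1, 5.65-fold higher. At the negative-control floor NEFL stayed 3.73-fold higher, whereas KIF5C was at 1.82-fold and INA at 1.14-fold, under the 2-fold mark. STMN4, a paralogue of STMN2, had 4.25 and 56.7, at least 4.63-fold higher, and NCAM1 (a neural cell adhesion molecule) was at least 4.79-fold higher. At the floor these too stayed under 2-fold, STMN4 at 1.08-fold and NCAM1 at 1.12-fold. FEZ1, an axon outgrowth protein, was bright in both samples, at 530 and 1162, and 3.82-fold higher with or without the floor. MARCKS, a membrane-bound actin-binding protein of the growth cone, had 70.8 in DMSO and 10.4 in LBH589, at least 2.80-fold lower, but both signals lay under the highest negative-control spot of their array and the floor left no value.

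Of the proneural and neuronal transcription factors, 46 symbols, 3 had probes. OLIG3, a basic helix-loop-helix factor of dorsal neural progenitors, followed the pattern of NEUROG1, with 4.25 in DMSO and 193 in LBH589, at least 15.8-fold higher, or 3.69-fold at the floor. DLX5, a homeobox factor of forebrain interneurons and of bone, had 1635 in DMSO and 129 in LBH589, 7.27-fold lower. Of 24 repressors of the neuronal programme, 3 had probes in the rows used, and each was at least 2-fold lower, though only HES1 and ID3 kept a value at the negative-control floor. HES1, a Notch target that represses proneural genes such as NEUROG1, had 970 and 110, 5.07-fold lower. ID3, which binds the partners of proneural factors, had 3505 and 333, 6.04-fold lower, and HEY1, a further Notch target, had 62.0 and 3.09, at least 2.45-fold lower, with both signals inside the range of the negative-control spots. HES1 and ID3, unchanged in value by the floor, differed in these 2 samples in the direction opposite to NEUROG1, which was 1.65-fold higher at the floor. A link between these genes was not tested.

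ACTL6B was the one BAF subunit of 3 listed that was higher. SMARCC1, a core subunit abundant in the progenitor form of the complex, had 251 in DMSO and 37.3 in LBH589, 3.87-fold lower, or 2.94-fold at the floor. SMARCD3, a subunit known from heart muscle and neurons, had 238 and 6.47, the second not well above background, and was at least 9.43-fold lower, or 2.79-fold at the floor. ACTL6A, which ACTL6B replaces in neurons, had no probe in the rows used and was not analysed here.

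Of the synaptic vesicle and secretory granule list, 11 of 15 probes were at least 2-fold higher and 3 lower. RAB3A, a GTPase of synaptic vesicles, had 7.42 in DMSO and 184 in LBH589, at least 15.1-fold higher, or 3.52-fold at the negative-control floor. SYN2 (synapsin II, a vesicle phosphoprotein) had 43.4 and 151, 6.06-fold higher, or 2.89-fold at the floor. SCG3 (secretogranin III), of the dense-core granule, had 2 probes that were 10.3-fold and 4.78-fold higher, or 3.86-fold and 1.47-fold at the floor. The 3 probes of TAC1, the precursor of substance P, were 5.13-fold to 5.82-fold higher, and SST (somatostatin) was 6.11-fold higher; the floor left TAC1 at 5.13-fold to 5.71-fold and SST at 3.57-fold. Of the neuropeptides, GAL (galanin) went the other way and had 20917 in DMSO and 2202 in LBH589, 5.46-fold lower. SYNPR (synaptoporin, a vesicle membrane protein) was lower by both of its probes, 6.72-fold and 8.27-fold, or 3.85-fold and 6.48-fold at the floor.

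Of the neuronal channels, receptors and transmitter enzymes, 8 of 9 probes were at least 2-fold higher and none at least 2-fold lower. NTRK2, the receptor of the growth factor BDNF, had 28.3 and 140, 8.63-fold higher, and GAD1, the enzyme that makes the transmitter GABA, had 54.7 and 255, 8.11-fold higher. At the negative-control floor NTRK2 was 2.68-fold and GAD1 4.88-fold higher. Bounds of 2.10-fold to 3.04-fold were obtained for the channel or transporter genes SCN1A, SLC17A7, CHRNB4 and GRIK1, whose signals in LBH589 stayed below the highest negative-control spot of that array.

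Of the other neuronal markers, 7 of 12 probes were at least 2-fold higher and 5 lower. TTC9B had 4.25 in DMSO and 574 in LBH589, at least 46.8-fold higher, or 3.45 log2 at the negative-control floor against 5.55 without it. NPTX2 (neuronal pentraxin 2, a secreted protein of excitatory synapses) had 36.5 and 651, 31.0-fold higher, and NOVA2, a splicing factor of neurons, had 80.8 and 628, 13.5-fold higher; at the floor NPTX2 was 12.4-fold higher and NOVA2 moved from 3.76 to 3.58 log2. ELAVL3, an RNA-binding protein of neurons, had 31.5 and 82.4, 4.56-fold higher, but 1.57-fold at the floor. RBFOX3 (the NeuN antigen) had 135 and 5.22 and was at least 5.35-fold lower, and DCC, the netrin receptor of growing axons, had 125 and 12.4 and was at least 4.93-fold lower. At the floor they were 1.58-fold and 1.46-fold lower, under the 2-fold mark. TTC9B was put in the list after its value had been seen.

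**Figure D3:**
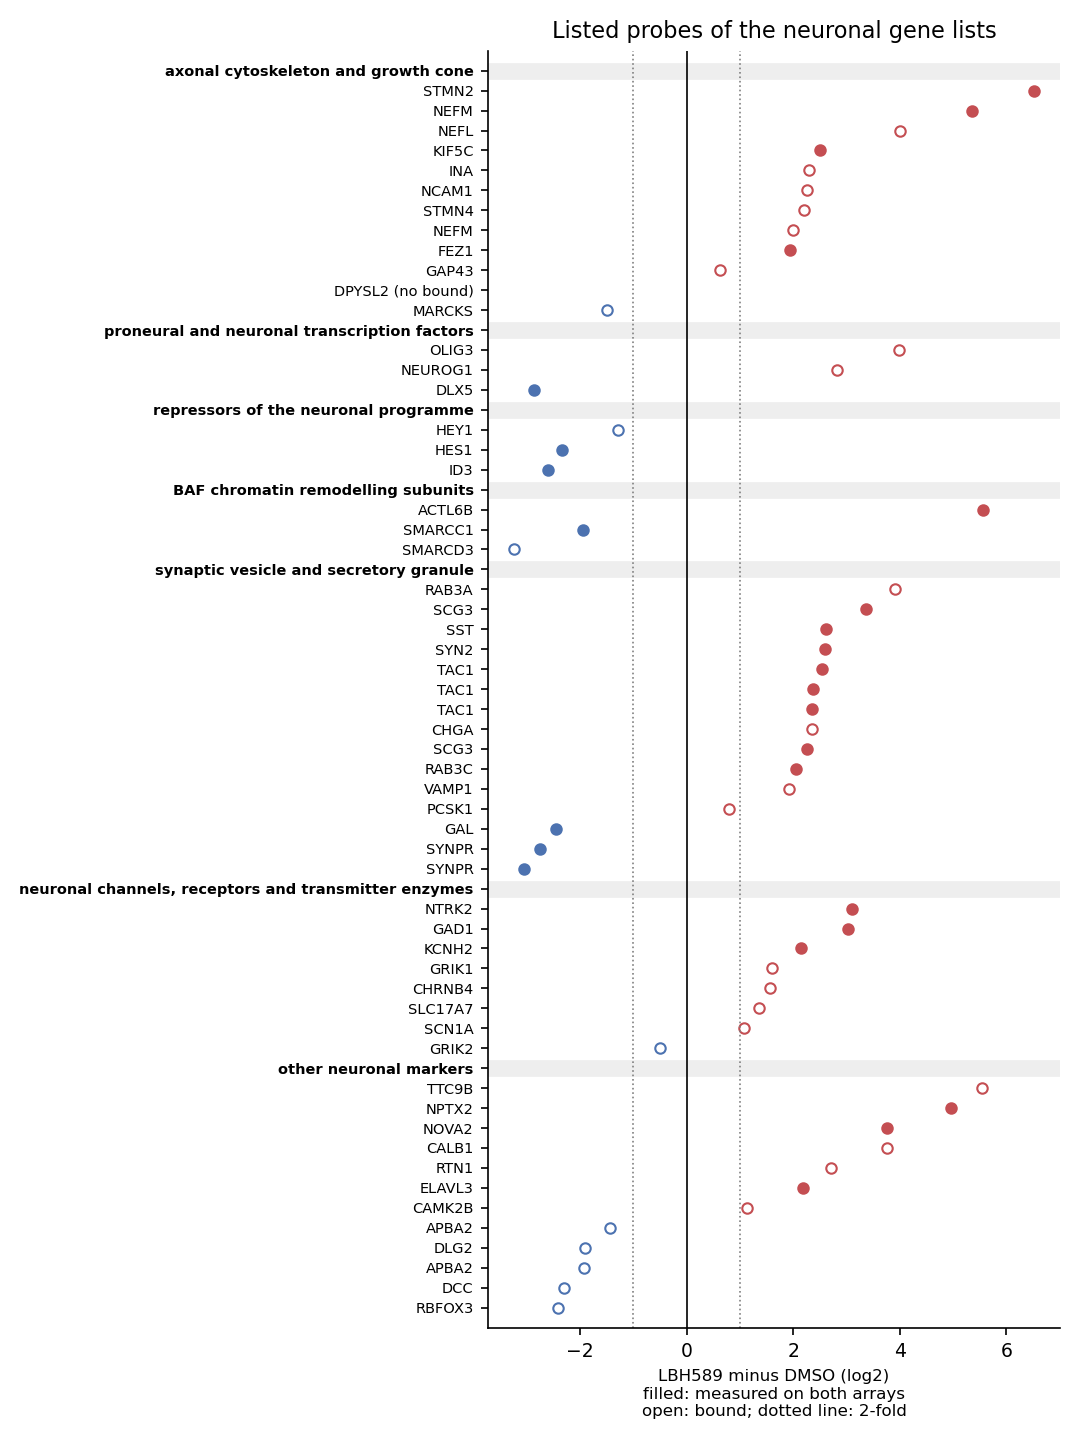
LBH589 minus DMSO difference (log2) of the listed probes in the 7 neuronal lists, 1 of them left out, grouped by role, with filled circles for probes well above background on both arrays and open circles for bounds. Red lies right of 0 and blue left; the axonal, synaptic and receptor lists lie mostly to the right, the 3 repressors lie to the left, and ACTL6B at 5.56 stands opposite SMARCC1 and SMARCD3.

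Of the upstream stretches, 25 of the 34 neuronal list genes at least 2-fold higher had an entry in the promoter table. A GC box occurred in 60% of these against 42.6% of all stretches, CCAAT in 44% against 32%, TATAAA in 12% against 10.7% and an E-box in 60% against 61.8%. Neither arm of RE1 occurred in the 25. Their median was 21 CpG dinucleotides and 64.8% GC, against 11 and 58% over the table, which holds noncoding genes too, so the gap describes these stretches and no test was made.

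The processing moved the size of the member differences, with STMN2 the highest and GAP43 the lowest at each setting that gave both. Over 12 settings the STMN2 difference ranged from 5.58 to 6.67 log2 (47.7-fold to 102-fold), the shared NEFM probe from 4.55 to 5.47 and ACTL6B from 4.48 to 5.78. The 3 probes thus stayed at least 22.4-fold higher under every setting tried. NEUROG1 ranged from 0.72 to 5.14 and the second NEFM probe from 0.81 to 3.58, and both reached their highest value where the probe's own dim DMSO signal was used in place of the bound. GAP43 ranged from -0.17 to 2.32 and crossed 0 without scaling.

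**Figure D4:**
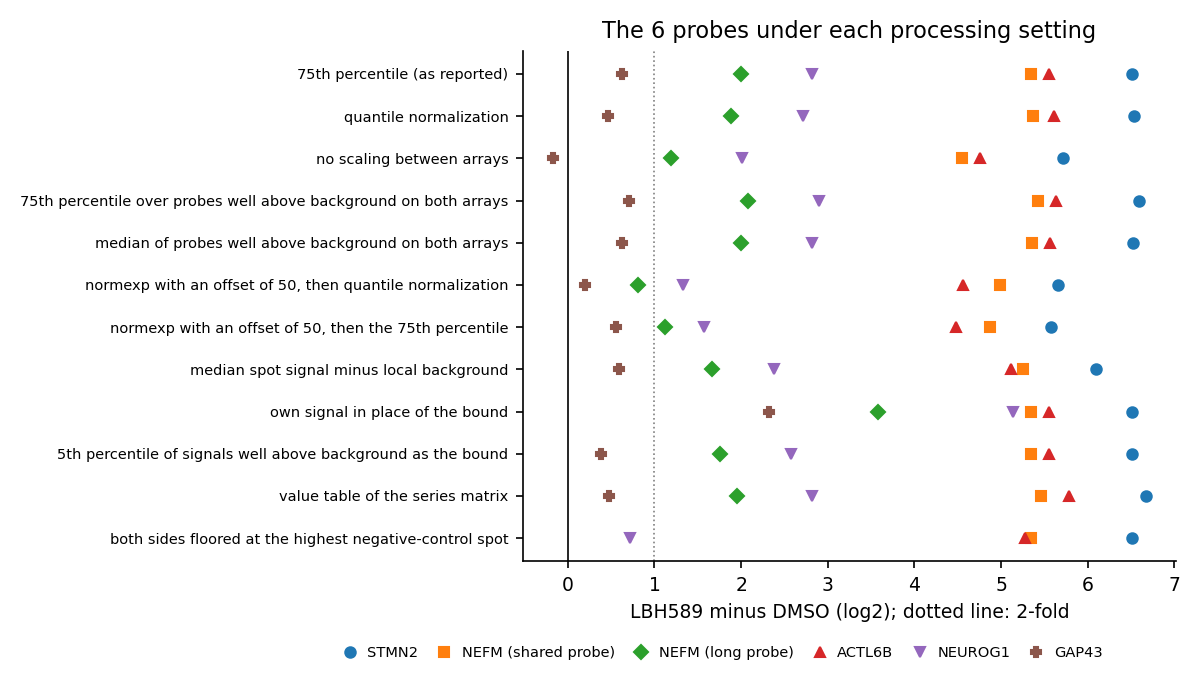
LBH589 minus DMSO difference (log2) of the 6 member probes, one symbol each, under each processing setting; the solid line marks 0 and the dotted line 2-fold. STMN2, the shared NEFM probe and ACTL6B stay right of 4.48 throughout, NEUROG1 and the second NEFM probe shift with the treatment of dim signals, and GAP43 lies left of 0 without scaling; the last setting gives no value for GAP43 and the second NEFM probe.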

How the data were processed

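Per the file headers, the scanner output was made with Agilent Feature Extraction 11.0.1.1 (10.7.3.1 per the labels). The deposited intensity values used were gProcessedSignal, background-subtracted by that software. The authors' value table holds deposited log2 values, whose normalization is not given in the sources used here; its column medians are 6.27 (DMSO) and 6.26 (LBH589), it correlates with the log2 processed signals (Pearson's r across probes 0.9997 and 0.9995), and it served as an alternative. Control spots, the 600 negative-control spots and outlier spots (26 and 37 non-control spots) were left out, repeated spots were averaged, and log2 signals were centred on each array's 75th percentile. No spot was saturated. A side not well above background gave a bound. Errors were Feature Extraction's spot errors. Alternatives included quantile normalization, no scaling, and limma 3.58.1 normexp (offset 50). The latter was planned on mean spot signals and was run on median ones, because the scanner output held no mean signals. Versions were R 4.3.3, Python 3.11.15, numpy 2.4.6, pandas 2.3.3 and matplotlib 3.10.9.

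Symbols and hg19 coordinates came from the first 1002 raised and 952 lowered rows of the study's mRNA lists, which were available in shortened form; their fold changes and p-values were not used. Named were the 5 members, listed genes of the 7 neuronal lists and 4 lists of other tissues, and the 3 listed genes nearest to each member measured on both arrays. Some genes are counted but not reported here. Members and lists were chosen with earlier results of these data known. Tested on simulated data for LBH589 against DMSO (58921 probes), the steps recovered 200 of 200 probes changed 8-fold at a 5-fold mark. In the same simulation, 12 unchanged probes passed that mark. The 200 were drawn only from probes well above background on both arrays with a mean log2 signal above 8. Their full recovery was therefore near certain beforehand, and recovery of dim signals was not examined. Nothing is therefore read from it about the differences written as bounds, such as those of NEUROG1, GAP43 and the second NEFM probe. With 1 array per group the number of arrays limits the precision.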

Additional observations from a re-analysis of the deposited data

How the results depend on the processing

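Of 64 alternative values of the member differences, 42 stayed within the 95% interval of the measurement error (for a bound, that of the LBH589 spot alone), 21 moved further and 1, GAP43 without scaling, changed sign, at -0.17 log2. Without scaling the differences were 5.72 (STMN2), 4.55 (NEFM shared), 1.20 (NEFM long), 4.76 (ACTL6B) and 2.02 (NEUROG1). With normexp and quantile normalization they were 5.66 (STMN2), 0.81 (NEFM long), 4.56 (ACTL6B) and 1.33 (NEUROG1), and with normexp and the 75th percentile 5.58 (STMN2), 4.87 (NEFM shared), 1.12 (NEFM long), 4.48 (ACTL6B) and 1.57 (NEUROG1). With the median spot signal they were 6.09 (STMN2), 5.12 (ACTL6B) and 2.38 (NEUROG1). With the probe's own dim signal they were 3.58 (NEFM long), 5.14 (NEUROG1) and 2.32 (GAP43). With the floor at the highest negative-control spot, a setting chosen after seeing the data, NEUROG1 was at 0.72, and GAP43 and NEFM long had no value because both sides lay under it.

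The count of probes at least 2-fold higher was 5094, and it was 1802 without scaling, 2474 and 2346 with normexp and quantile or 75th-percentile scaling, 2842 with the negative-control floor and 8147 with no filter on dim probes. The count at least 5-fold higher was 1035, and it was 477, 406, 371 and 541 under the first 4 of these, 647 with the median spot signal and 1687 with own dim signals. The neuronal list probes at least 2-fold higher numbered 38, and 25 with normexp and quantile normalization and 21 with the negative-control floor, which left 8 of 15 lower. The other 22 of 36 counts stayed within 1.5 times. Where a floor or offset raises dim signals, differences shrink by construction; the cause of the other shifts was not tested.

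No paired analysis was possible because each condition has 1 array. Dim signals limit NEUROG1, GAP43 and the second NEFM probe; the spread between cultures is unknown.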

Other observations

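The array also carries long noncoding RNAs (lncRNAs), and 15 of their listed probes lie beside or within genes of the neuronal lists, none of them beside the members. Of these 15, 5 were at least 2-fold higher, 2 at least 2-fold lower and 8 neither, against 43.5% higher and 28.4% lower of the 1991 listed lncRNA probes. The noncoding transcript of BCL7B, a BAF subunit gene, had 216 in DMSO and 850 in LBH589, 6.86-fold higher. RP11-87C12.5, antisense to another BAF subunit gene, BCL7A, had 46.6 and 123, 4.58-fold higher. A noncoding transcript of CALB2 (calretinin, a calcium buffer of interneurons) had 4.25 and 113, at least 9.25-fold higher, and RP11-158J3.2, in the sense direction at the serotonin receptor gene HTR1A, was at least 4.84-fold higher. With signals raised to the highest negative-control spot (the floor), the last 3 were at 2.34-fold, 2.16-fold and 1.13-fold, and that of BCL7B did not move. At MAPT, which encodes the axonal microtubule protein tau, both listed lncRNAs were lower: MAPT-IT1 had 6550 and 813, 4.63-fold lower, and MAPT-AS1, in antisense, had 60.1 and 5.09, at least 2.38-fold lower but within the range of the negative-control spots. The fifth higher probe, C15orf45 at SCG5, was at least 2.50-fold higher and also within that range. Among the probes that did not reach 2-fold were those at APBA1, CNTNAP2, KCNIP1, SOX11 and SYN3. Sense-overlapping lncRNA probes may take up RNA of their host gene, which was not tested.

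Of 151 symbols in the glia, kidney, skeletal muscle and blood lists, 9 were listed, with 5 of 10 probes at least 2-fold higher and 5 lower, and none of 28 glial symbols was listed. Among all 1943 listed mRNA probes without an outlier mark, 866 were higher and 812 lower by that rule. All 4 listed kidney and nephron progenitor probes were at least 2-fold higher, both skeletal muscle probes lower, and of the 4 blood probes 1 (HBA1) higher and 3 lower. At the floor HBA1 stayed 3.70-fold higher. The lower blood probes were there at 1.47-fold (CD79B) and 1.19-fold (CD79A), and another CD79B probe had no value. PAX7, a muscle progenitor factor, had 585 in DMSO and 22.0 in LBH589, 15.2-fold lower (6.84-fold at the floor), and its relative PAX3 had 1224 and 149, 4.71-fold lower. RET, a receptor of kidney and nerve development, had 492 and 1191, 4.21-fold higher with or without the floor. CALB1, a calcium buffer that the neuronal lists also hold, was at least 13.5-fold higher, or 3.16-fold at the floor, and AQP1 (a water channel) and MEOX1 (a homeobox factor) were at least 3.46-fold and 2.31-fold higher from signals inside the range of the negative-control spots.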
